A study of Mus musculus with 6 samples.

Results

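Plexins are cell-surface receptors, semaphorins are their secreted or membrane-bound ligands, and neuropilins are co-receptors that share ligands with the VEGF receptors. The system was first known for guiding axons, and in macrophages and other immune cells its members take part in cell migration, cell contacts and the control of T cells and B cells. When a semaphorin binds, the intracellular part of a plexin acts on small GTPases, and through them on adhesion and the actin skeleton.

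The 10 genes described here are Plxna1, Plxna4, Plxnb2, Plxnc1 and Plxnd1, the semaphorins Sema4a, Sema4c and Sema4d, and both neuropilins, Nrp1 and Nrp2. They are 10 of 24062 genes in the count tables. They were taken by name, and the group was chosen from measured values, because Plxna4 was higher after irradiation in all 3 states. The irradiation values of the 10 genes are therefore given as a description with no p-value. All 10 had at least 10 counts in every library, so none was lost to a filter on low values.

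The RAW264.7 line of mouse macrophages was sequenced in 6 conditions. Each condition gave 1 library, made from RNA pooled over 5 wells. M0 cells were not polarized, M1 cells were given LPS at 100 ng/mL with IFN-γ at 20 ng/mL, and M2 cells were given IL-4 at 20 ng/mL, each over 24 h. The study's text also gives lower doses of IFN-γ and IL-4 in 1 place. RM0, RM1 and RM2 cells were in the same states and received 10 Gy of gamma radiation from a caesium source, followed by 24 h of culture. The sources used here do not state whether the non-irradiated cells were also kept for those 24 h, so radiation and time in culture cannot be told apart. The labels name bone marrow as the tissue, while they give RAW264.7 as the cell line. Pooled wells leave no measure of the spread between cultures, and no difference between 2 libraries has a replicate check.

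The libraries held 17894937 to 18870516 counts. All 7 macrophage markers examined (Csf1r, Cd68, Adgre1, Itgam, Lyz2, Ptprc and Fcgr1) were measured, with a summed level of 17453 to 33122 CPM, counts scaled to a common library size. All 4 epithelial markers had 0 counts, the summed endothelial markers reached 0.857 to 2.87 CPM with Tek and Emcn at 3 counts or fewer, 4 neuronal markers summed to 1.2 to 1.76 CPM, and 4 lymphocyte markers summed to 0.0493 to 0.24 CPM. The 5 fibroblast markers summed to 42.7 CPM in M1 and 43.8 CPM in RM1 against 5.92 to 9.32 CPM elsewhere, with Dcn at 627 and 726 counts in M1 and RM1 and Col1a2 and Col3a1 at 3 counts or fewer in all libraries. That difference came with the M1 libraries, and its part in the values below was not tested. In bulk RNA, fewer cells of a type and less RNA per cell cannot be told apart.

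Levels are in CPM scaled with the TMM method, which sets libraries to a common level over most genes, and intervals are exact 95% Clopper-Pearson intervals that cover counting error only. Fold changes are on the log2 scale with a prior count of 2. A gene was called higher or lower between 2 libraries when it differed 2-fold or more and 1 of them held 10 counts or more, a call that compares libraries and not conditions.

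**Figure D1:**
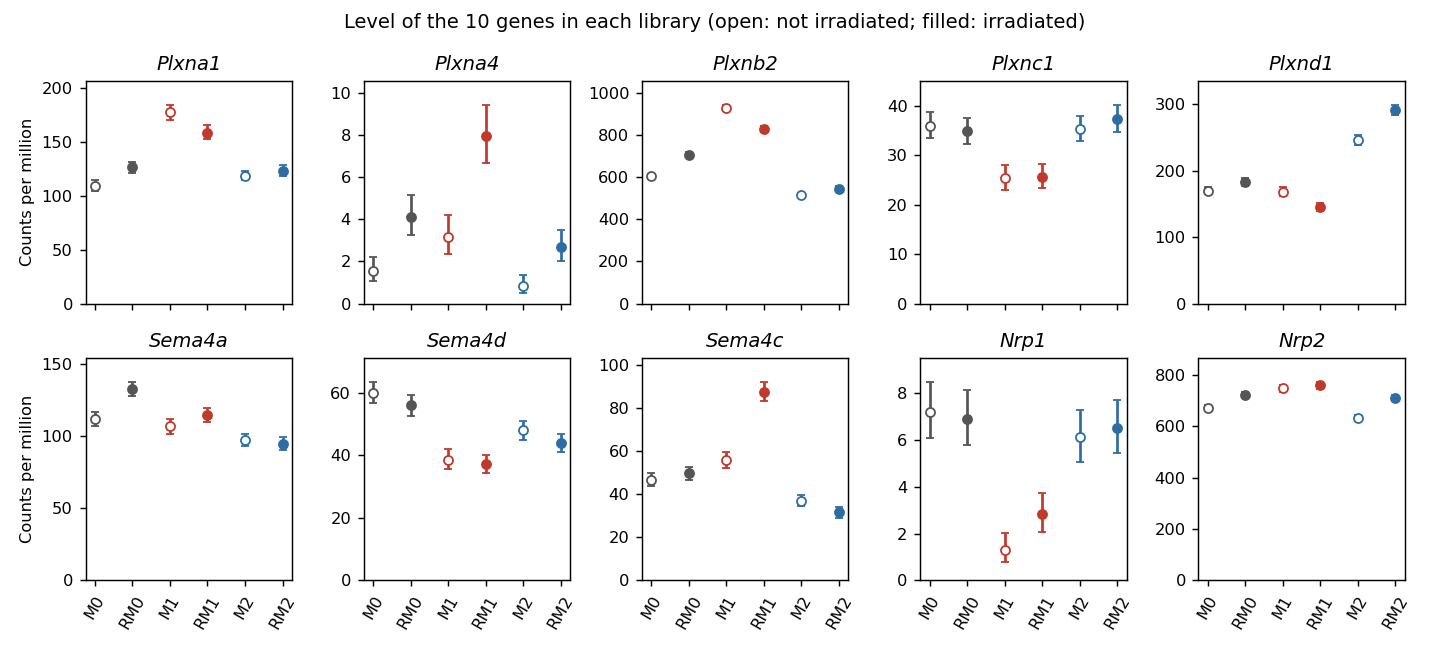
Level of each of the 10 genes in CPM (vertical axes, each starting at 0) in the 6 libraries, with exact 95% counting intervals and 1 library per point. Open points are non-irradiated and filled points are irradiated libraries. Plxna4 was highest in RM1 at 7.98 CPM, Nrp1 was lowest in M1 at 1.29 CPM, and Plxnd1 was highest in RM2 at 291 CPM.

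Per kilobase of transcript, the mean level over the 6 libraries was highest for Nrp2 at 111 CPM per kb and Plxnb2 at 106 CPM per kb. Sema4a at 36.1, Plxnd1 at 29.1, Plxna1 at 15, Sema4c at 13.6 and Sema4d at 10.6 CPM per kb formed the middle. Plxnc1 at 4.45, Nrp1 at 1.43 and Plxna4 at 0.264 CPM per kb were the lowest of the 10. The tables list a start and end for each gene, and for some genes these cover part of the annotated gene: 16.2% for Plxna4, 19.9% for Nrp2, 52.3% for Sema4a and 70.8% for Plxnb2. Where within these genes the reads were counted is not known. If only the exons inside the listed span are used as the length, the mean level becomes 275 CPM per kb for Plxnb2, 207 for Nrp2, 91.7 for Sema4a and 1.57 for Plxna4. Nrp2 then lies below Plxnb2, and Plxna4 lies beside Nrp1, at 1.58 CPM per kb.

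The sequence before the start site is shown for Nrp1 and Plxnc1, lowest in the M1 and RM1 libraries, and for Plxnd1. Plxnd1 was highest in M2 and RM2. It was also lowest in M1 and RM1, though its M0 and M1 did not differ beyond counting error. The genes shown are examples of members with a polarized pair of libraries apart from the other 4. Other members had such a pair too, and the share of all genes with one was not worked out. Such an order can depend on the scaling. Nrp2 was highest in M1 and RM1 with TMM, but with counts scaled to library totals alone M1 lay below M0 (log2 fold change -0.28). RefSeq (GRCm38.p6) gave promoter entries for 8 of the 10 genes, 15 entries in all, and none was matched for Plxna1 and Plxna4. Each line holds the 250 bases before the start, 5′ to 3′ on the gene's strand, with GC boxes (GGGCGG on either strand) in capitals. Nrp1 lies at chr8:128358823-128359072 (plus strand), Plxnc1 at chr10:94944846-94945095 and Plxnd1 at chr6:115995006-115995255 (both minus strand).
Nrp1: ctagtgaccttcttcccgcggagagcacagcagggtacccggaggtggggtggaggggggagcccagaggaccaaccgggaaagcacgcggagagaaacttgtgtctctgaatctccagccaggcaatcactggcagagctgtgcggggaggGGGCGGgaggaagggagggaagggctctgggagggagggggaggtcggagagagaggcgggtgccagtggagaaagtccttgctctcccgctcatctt
Plxnc1: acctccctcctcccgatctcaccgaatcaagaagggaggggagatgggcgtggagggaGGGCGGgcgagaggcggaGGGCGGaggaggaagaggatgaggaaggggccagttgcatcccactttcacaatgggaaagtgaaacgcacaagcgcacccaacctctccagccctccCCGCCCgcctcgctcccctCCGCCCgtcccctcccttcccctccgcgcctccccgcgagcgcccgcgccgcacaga
Plxnd1: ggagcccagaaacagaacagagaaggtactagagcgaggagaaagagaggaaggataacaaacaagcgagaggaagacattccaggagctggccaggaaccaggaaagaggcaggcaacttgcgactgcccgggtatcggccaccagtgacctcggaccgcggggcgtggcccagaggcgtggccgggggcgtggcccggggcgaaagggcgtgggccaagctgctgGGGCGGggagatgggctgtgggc
These windows held 1 GC box for Nrp1, 4 for Plxnc1 and 1 for Plxnd1, and 32.7% of all 32851 promoters hold at least 1. A STAT-type motif, written TTCNNNGAA or TTCNNNNGAA, was in 0 of the 15 entries, beside 7.02% and 5.85% of all promoters. The AP-1 motif TGANTCA was in 2 of the 15 entries, 1 of Sema4c and 1 of Sema4d, beside 6.75% of all. STAT factors act downstream of IFN-γ and IL-4 and AP-1 downstream of LPS, and a match or its lack in these windows is a description of letters only.

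Plxna4, a class A plexin that binds class 3 semaphorins with a neuropilin and class 6 semaphorins without one, is listed at chr6:32516495-32588192 (GRCm38, minus strand), a span that holds 2 of the 32 exons of its transcript. Without irradiation, M0, M1 and M2 held 31, 47 and 17 counts of Plxna4, and after it RM0, RM1 and RM2 held 81, 133 and 53. In CPM these were 1.56, 3.18 and 0.838 without irradiation and 4.13, 7.98 and 2.67 after it. Each irradiated library was above the non-irradiated library of its state, but the groups overlapped, since RM2 lay below M1. The log2 fold change was 1.34 in M0 (interval 0.79 to 2.05), 1.30 in M1 (0.837 to 1.84) and 1.55 in M2 (0.861 to 2.55).

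These are the values that the choice of the group used. At 2-fold, 84 of 11688 genes (0.719%) were higher in RM0 than in M0 and 0.821% were lower. In RM1 against M1 the shares were 3.08% and 2.25%, and in RM2 against M2 they were 1.03% and 0.932%. Higher in all 3 states were 9 of 11174 genes, or 0.0805%, and Plxna4 was 1 of them. A larger log2 fold change than that of Plxna4 was found for 38 genes in M0, 166 in M1 and 18 in M2. The lowest of its 3 changes, 1.30 in M1, was past the 2-fold limit, and the next of the 10 genes, Nrp1, passed it in M1 alone. Ordered by level, RM1 was above RM0 beyond counting error. RM0 and M1 did not differ beyond it, nor did M1 and RM2, while RM2 was below RM0 (log2 fold change -0.61, interval -1.16 to -0.113). M0 followed, below RM2 beyond counting error (interval of the log2 step 0.107 to 1.46). M2 was last, and its step from M0, on 17 against 31 counts, barely excluded 0 (0.00101 to 1.84). Plxna4os1, an antisense gene that overlaps Plxna4, had 1 to 4 counts per library, and the sources used here do not say whether reads were counted by strand.

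The share of plexin reads does not depend on a scaling between libraries. Of all reads on the 9 plexin genes, Plxna4 held 0.164% in M0 (interval 0.111 to 0.232), 0.237% in M1 (0.174 to 0.315) and 0.088% in M2 (0.0513 to 0.141). After irradiation it held 0.379% (0.301 to 0.471), 0.66% (0.553 to 0.781) and 0.257% (0.193 to 0.336). In each state the intervals of the irradiated and non-irradiated library were apart. The shares rest on the same Plxna4 counts that the choice of the group used, so they add no separate support.

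**Figure D2:**
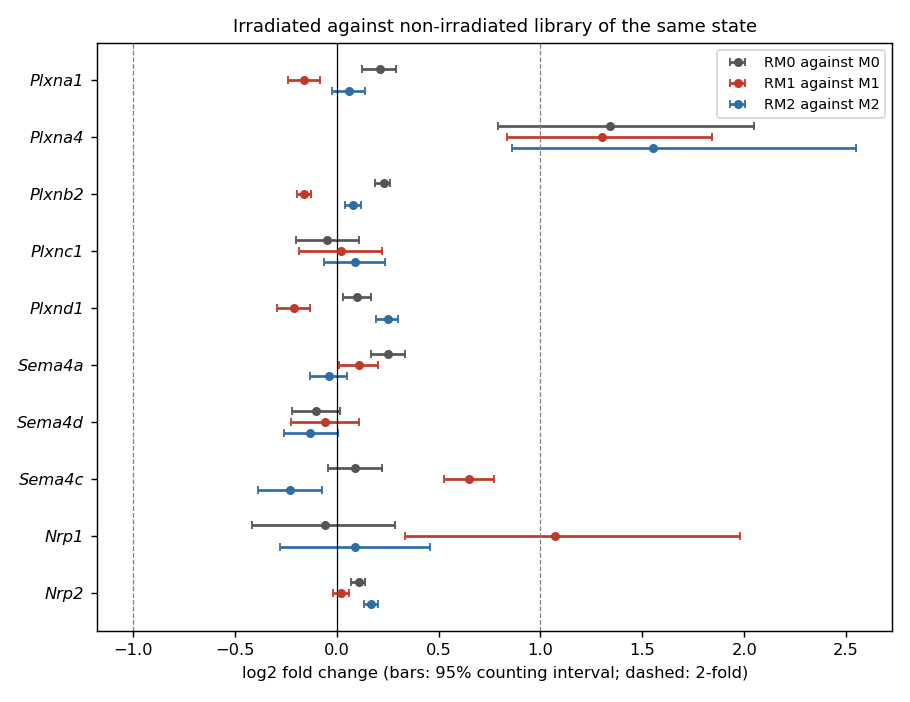
Log2 fold change of each gene after irradiation in each state (horizontal axis), with 95% counting intervals. Plxna4 lay between 1.30 and 1.55 in the 3 states, past the dashed 2-fold line, Nrp1 passed it in M1 at 1.07, and the other 8 genes stayed between the lines.

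The other 4 plexins moved little between irradiated and non-irradiated libraries. Plxnb2, a receptor for class 4 semaphorins, had 11981, 13729 and 10497 counts in M0, M1 and M2 and 13835, 13855 and 10841 in RM0, RM1 and RM2. Its log2 fold changes were 0.23 in M0, -0.16 in M1 and 0.08 in M2, each with an interval that excluded 0. Plxna1, a class A plexin, gave 0.21, -0.16 and 0.06, and Plxnd1 (chr6:115954811-115995005, minus strand), a receptor for Sema3e, gave 0.10, -0.21 and 0.25. The negative values in M1 became 0.03 for each of these 3 genes when a trend of fold change with GC content was removed. With library totals, which move the median of all genes in RM1 against M1 from -0.01 to 0.13, they became -0.02, -0.02 and -0.07 for Plxna1, Plxnb2 and Plxnd1. Plxnc1, the receptor for Sema7a, gave -0.05, 0.02 and 0.09, with all 3 intervals around 0.

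Among the ligands, Sema4c (chr1:36548640-36558381, minus strand), a membrane-bound class 4 semaphorin, had the largest change of the 3 after irradiation. Its counts were 925, 825 and 750 in M0, M1 and M2, and 972, 1459 and 626 in their irradiated counterparts. The log2 fold change was 0.65 in M1 (interval 0.525 to 0.774), -0.23 in M2 (-0.384 to -0.0738) and 0.09 in M0 (-0.0423 to 0.221). It stayed under 2-fold in every state, and 960 genes had a larger change in M1. Of the reads on all 20 semaphorin genes, Sema4c held 18.2% in M1 (17.1 to 19.4) and 23.8% in RM1 (22.8 to 24.9). Sema4a, a membrane-bound semaphorin that acts on T cells, gave 0.25 in M0, 0.11 in M1 and -0.04 in M2. Sema4d, a ligand of class B plexins and of Cd72 on immune cells, gave -0.10, -0.06 and -0.13, with intervals that included 0.

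Both neuropilins bind class 3 semaphorins and VEGF. Nrp1, listed at chr8:128363219-128505475 on the plus strand, had 143, 19 and 124 counts in M0, M1 and M2, and 135, 47 and 129 in RM0, RM1 and RM2. RM1 was thus above M1 with a log2 fold change of 1.07 (interval 0.337 to 1.98), while M0 gave -0.06 (-0.416 to 0.284) and M2 gave 0.09 (-0.278 to 0.456). The call in M1 rests on 19 and 47 counts. Nrp2 had 11066 to 14125 counts in the 6 libraries and gave 0.11, 0.02 and 0.17. In all, 1 of the 10 genes was called higher in RM0, 2 in RM1 and 1 in RM2, and none was called lower. The median log2 change of the 10 was 0.10, 0.02 and 0.08, beside 0.00, -0.01 and 0.00 over all genes.

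Polarization was not used to choose the group, and its changes were tested over all 6 libraries by the quasi-likelihood method of edgeR with terms for polarization and irradiation. The irradiated and the non-irradiated library of a state stand in for replicates here, which assumes the same effect of polarization in both and leaves 2 residual degrees of freedom. The M1 and M2 tests share the M0 and RM0 libraries.

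With M1 polarization, Plxna1, Plxna4, Plxnb2 and Sema4c rose and Plxnc1, Sema4d and Nrp1 fell, at an adjusted p under 0.05. Across all genes tested with edgeR, 23.3% rose and 24.3% fell, so calls on 7 of 10 genes came in a comparison in which many genes were called. The scaling bears on this split. With library totals in place of TMM the median of all genes moves from -0.03 to -0.46 in M1 against M0 and from -0.01 to -0.25 in RM1 against RM0, 9.43% of all genes rose and 41% fell. Then 0 of the 10 genes rose and 5 fell: Plxnc1, Sema4d, Nrp1, Plxnd1 and Sema4a. The falls of Plxnc1, Sema4d and Nrp1 held under both scalings.

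Nrp1 had the largest change of the 10. It was at 7.21 CPM in M0 and 6.89 CPM in RM0, and at 1.29 CPM in M1 and 2.82 CPM in RM1. The M1 and RM1 libraries were thus the lowest of the 6, and the share of all genes with this order was not worked out. The fitted log2 fold change was -1.78 ± 0.29 (SE, edgeR adjusted p = 0.000695). Between single libraries, M1 gave -2.39 relative to M0 (interval -3.26 to -1.79), while RM1 gave -1.26 relative to RM0 (-1.8 to -0.801). M1 against M0 called 9.37% of all genes higher and 13.3% lower at 2-fold, and RM1 against RM0 called 6.16% higher and 7.87% lower. Nrp1, called lower in both, was the only one of the 10 genes that these 2 comparisons called. Plxna4 lay just under the limit in M1 against M0, at 0.98, and passed it with DESeq2's size factors or a prior count of 0.25.

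Sema4d was at 60 CPM in M0 and 56 CPM in RM0 against 38.7 CPM in M1 and 37.2 CPM in RM1, a log2 fold change of -0.61 ± 0.12 (edgeR adjusted p = 0.00192). Plxnc1 was at 36 and 34.9 CPM in M0 and RM0 against 25.4 and 25.7 CPM in M1 and RM1, with -0.47 ± 0.12 (edgeR adjusted p = 0.0102). For both genes the M1 pair was the lowest of the 6 libraries, as it was for Nrp1. The same order held for Plxnd1 with TMM, but its M0 and M1 did not differ beyond counting error (log2 step 0.02, interval -0.0582 to 0.0922). With DESeq2's size factors Plxnd1 was not lower in M1 than in M0 (log2 fold change 0.01).

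Plxna1 rose with M1 from 109 and 126 CPM to 177 and 158 CPM (0.52 ± 0.13, edgeR adjusted p = 0.007). Plxnb2 rose from 604 and 706 CPM to 929 and 831 CPM (0.43 ± 0.14, edgeR adjusted p = 0.03), and its call was lost at an adjusted p of 0.119 when only the 4 libraries of M0 and M1 cells were fitted. The fitted change of Plxna4 was 0.98 ± 0.25 (edgeR adjusted p = 0.00913) and that of Sema4c 0.56 ± 0.18 (edgeR adjusted p = 0.024). For Plxna4 this p is not independent of the choice of the group, as given above. Without the irradiation term the adjusted p became 0.235 for Plxna4 and 0.0548 for Sema4c. For these 4 genes, library totals gave 0.17, 0.08, 0.65 and 0.22, in the order Plxna1, Plxnb2, Plxna4 and Sema4c, and none passed. Pair by pair with TMM, Sema4c gave 0.26 without irradiation (counting interval 0.122 to 0.396). After irradiation it gave 0.82 (0.701 to 0.937). Library totals turned these values into -0.18 and 0.57. Plxna1 gave 0.70 and 0.33 with TMM, and Plxnb2 0.62 and 0.23, also with intervals apart. For Plxna4, at 0.98 and 0.93, the intervals overlapped. Whether the pairs share 1 change, as the fit assumes, was not tested. Nrp2 (0.12, edgeR adjusted p = 0.49), Plxnd1 (-0.17, adjusted p = 0.333) and Sema4a (-0.14, adjusted p = 0.365) did not pass with TMM.

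**Figure D3:**
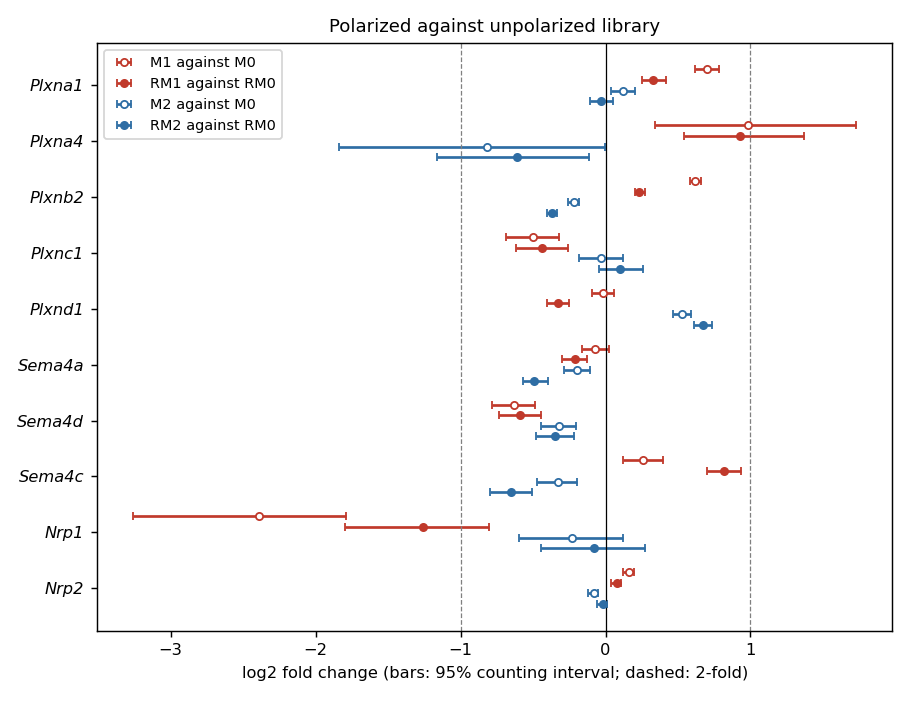
Log2 fold change of each gene between a polarized and the unpolarized library (horizontal axis), without irradiation (open) and after it (filled), with 95% counting intervals. Nrp1 in the 2 M1 comparisons, at -2.39 and -1.26, passes the dashed 2-fold line, and Plxnd1 is higher in both M2 comparisons at 0.53 and 0.67.

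With M2 polarization none of the 10 genes passed edgeR's test at an adjusted p of 0.05, and DESeq2's test also gave 0. Over all genes, 0.156% rose and 0.0346% fell at an adjusted p under 0.05. At an unadjusted p under 0.05, edgeR gave 5 of the 10, and the share of all genes at that looser limit was not worked out. The lowest adjusted p was that of Plxnd1, at 170 CPM in M0 and 183 CPM in RM0 against 246 CPM in M2 and 291 CPM in RM2. Its M2 pair was the highest of the 6 libraries, and the fitted log2 fold change was 0.60 ± 0.14 (edgeR adjusted p = 0.164). The other 4 at an unadjusted p under 0.05 were lower: Plxna4 (-0.72), Sema4c (-0.48), Sema4a (-0.34) and Sema4d (-0.34). A fit to the 4 libraries of M0 and M2 cells alone, with 1 residual degree of freedom, called 5 genes, Plxnd1 higher and Plxnb2, Sema4a, Sema4d and Sema4c lower. The share of all genes called in that fit was not worked out, so the 5 cannot be set against it. At 2-fold no member was called, beside 0.995% of genes higher and 0.442% lower in M2 against M0 and 1.66% higher and 0.953% lower in RM2 against RM0.

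The make-up of plexin reads, which needs no scaling between libraries, also differed with polarization. Plxnb2 held 63.2% of plexin reads in M0, 69.2% in M1 and 54.3% in M2, and 64.7%, 68.7% and 52.6% after irradiation. Plxnd1 held 17.8% in M0, 12.6% in M1 and 25.8% in M2, and 16.8%, 12% and 28.1% after irradiation. Its intervals in M2 (25.2 to 26.4) and RM2 (27.5 to 28.7) lay above those of the other 4 libraries. Plxnc1 held 3.77% in M0 and 3.2% in RM0 against 1.9% in M1 and 2.13% in RM1. Plxna1 stayed between 11.4% and 13.2%. A share also moves with the levels of the other plexins. In CPM, Plxnd1 was at 170 in M0 and 168 in M1, and at 183 in RM0 and 146 in RM1.

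**Figure D4:**
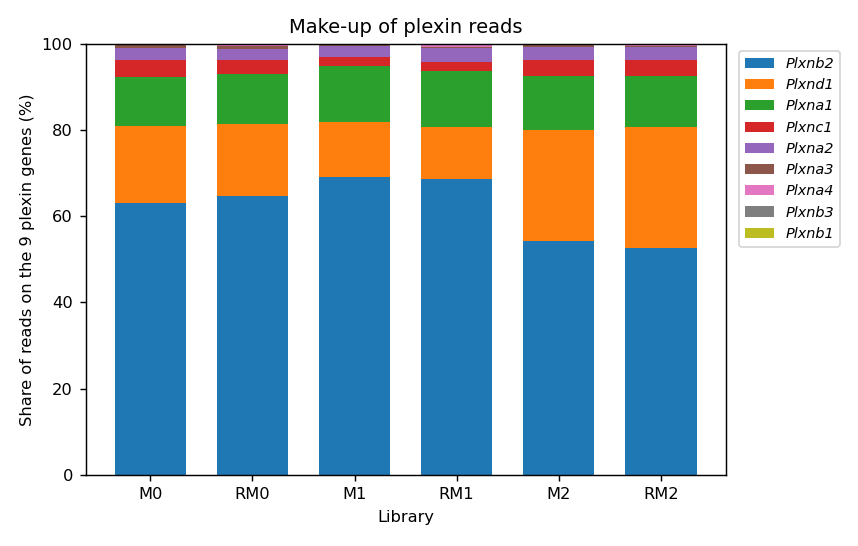
Share of the reads on the 9 plexin genes held by each gene (vertical axis, percent) in the 6 libraries, 1 bar per library. Plxnb2 holds 52.6% to 69.2%, and Plxnd1 is largest in M2 and RM2 at 25.8% and 28.1%.

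The rest of the family comprised 21 genes, of which 12 had enough counts to be tested. With M1, 2 of them rose and 6 fell (edgeR, adjusted p under 0.05), beside 23.3% and 24.3% of all genes. With library totals 1 rose and 6 fell, beside 9.43% and 41% of all genes. The median log2 change of the 12 was -0.46, beside -0.02 over all genes. Sema3c, a secreted ligand of neuropilins, rose by 3.01 on the log2 scale, from 21 and 23 counts in M0 and RM0 to 124 and 161 in M1 and RM1. Sema3e, the ligand of Plxnd1, had a log2 fold change of -0.62, and Plxnb3 (-1.34), Sema6b (-1.32), Plxna3 (-1.17) and Sema6d (-0.64), which include class 6 ligands of class A plexins, also fell. None of the 12 passed the M2 test, and none was called at 2-fold after irradiation in any state. Of all 20 semaphorin genes, 7 had 3 counts or fewer in every library.

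Of 16 co-receptors and partner receptors, 7 were tested. With M1, in log2 fold changes, Met (1.42), Flt1 (0.88), L1cam (0.60) and Cd72 (0.53) rose and Trem2 (-2.33) fell, beside 23.3% and 24.3% of all genes. With library totals 2 rose and 1 fell, beside 9.43% and 41% of all genes. Met is the receptor of hepatocyte growth factor and pairs with class B plexins, and Trem2 is a lipid receptor of macrophages that has been placed in a complex with Plxna1. After irradiation Met was called higher in M1, at 51 counts in M1 and 143 in RM1 (log2 fold change 1.29). Of 5 VEGF ligands, 4 were tested, and Pgf (2.87) and Vegfc (1.24) rose with M1 under both scalings. Pgf, which binds Flt1 and neuropilins, was called higher in RM2 than in M2 at 549 against 275 counts.

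Of 32 intracellular partners of plexins, 25 were tested. With M1, 10 rose and 5 fell, beside 23.3% and 24.3% of all genes. With library totals 5 rose and 10 fell, beside 9.43% and 41% of all genes. In log2 fold changes, Rnd1 (1.32) and Rnd2 (0.92), small GTPases that bind plexins, rose, as did Rras (1.20), a Ras-family GTPase on which plexins act, and Dpysl2 (0.98), a microtubule-binding protein of the semaphorin pathway. Rasa1 (-0.91), a Ras GTPase-activating protein, and Fes (-0.83), a tyrosine kinase, fell. In M2 polarization 0 of the 25 passed, and after irradiation 0 were called in any state.

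The genes whose pattern over the 6 libraries was most like that of Plxna4 were looked for among 10190 genes, by the root mean square difference of log2 levels centred on each gene's mean. Il1b was nearest at 0.356, followed by Gad1 at 0.391, Met at 0.426, Cacna1d at 0.48 and Lif at 0.48. Il1b and Lif encode secreted cytokines. Il1b had 2638, 2819 and 1700 counts in M0, M1 and M2 and 4136, 6624 and 2601 in RM0, RM1 and RM2. Of the other 9 genes described here, Sema4c was nearest at 0.708 and Nrp1 was farthest at 1.57. This measure weighs the size of the changes as well as their order. By Pearson correlation, which leaves size out, Nrp2 was nearest of the 9 at 0.94, beside 0.74 for Sema4c. Nrp2 itself ranged only from 632 to 759 CPM. These are descriptions over 6 libraries that share their scaling, and they carry no p.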

How the data were processed

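The authors deposited raw gene counts (unnormalized) for 24062 RefSeq genes per library. The submitters' processing notes list Trimmomatic 0.36, HISAT2 2.2.1, HTSeq 0.11.3 and mm10, and strand settings are not given in the sources used here. The 6 libraries, 1 per condition, held 17894937 to 18870516 counts. Adgre1 and Vegfd were found under older symbols through RefSeq synonyms.

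Counts were scaled with TMM in edgeR 4.0.16 (R 4.3.3) over genes that reached 10 counts in 3 or more libraries, and a prior count of 2 entered each log2 fold change. Irradiated libraries were set against their non-irradiated counterparts without a test. Polarization was tested by the quasi-likelihood method of edgeR, terms polarization and irradiation, on 11574 genes with Benjamini-Hochberg adjustment at 0.05. Standard errors were taken from the fold change and its F statistic. The test was run on simulated data first. Intervals at 95% are exact Clopper-Pearson intervals, and PCR reads are not independent molecules, so they cover counting error only.

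The 10 genes and all lists were chosen with earlier results of these data known. All 10 genes are reported. From the lists, genes called at 2-fold after irradiation or passing a polarization test are named, at most 6 per list by size of change. Gene lengths, exons and GC content came from GENCODE M21, with GC content found for 95.1% to 95.3% of genes. Genes most like Plxna4 were sought among those with a mean of at least 50 counts. The alternatives were DESeq2 1.42.0 (size factors and test), library totals, a prior count of 0.25, at least 50 counts, a 4-fold threshold, other gene filters, no irradiation term and 4 libraries only. Removal of the GC trend (lowess, fraction 0.3) was chosen after seeing the data. The remaining steps used Python 3.11.15, pandas 2.3.3, scipy 1.17.1 and statsmodels 0.14.6.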

Additional observations from a re-analysis of the deposited data

Results flagged for a closer look

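For 4 of the 10 genes the irradiated library lay above the non-irradiated one in 1 state and below it in another, with both counting intervals away from 0. The share of all genes with such a reversal was not worked out, so the count cannot be set against it. With 1 library per condition these differences between states were not tested. The log2 fold change of Plxna1 was 0.21 in M0 and -0.16 in M1. Plxnb2 gave 0.23 in M0, -0.16 in M1 and 0.08 in M2. Plxnd1 gave 0.10 in M0, -0.21 in M1 and 0.25 in M2. Sema4c gave 0.65 in M1 and -0.23 in M2. With the GC trend removed, the M1 values of Plxna1, Plxnb2 and Plxnd1 each became 0.03, while Sema4c gave 0.85 in M1 and -0.11 in M2. With library totals those M1 values became -0.02 for Plxna1, -0.02 for Plxnb2 and -0.07 for Plxnd1. Sema4c then gave 0.79 in M1 and -0.28 in M2.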

How the results depend on the processing

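No paired analysis was possible because the labels give 1 sample per group and no shared replicate numbers, and for the same reason no replicate could be left out. Under a 4-fold threshold, 0 of the 10 genes were called in RM0 against M0, RM1 against M1, RM2 against M2 and RM1 against RM0. With at least 50 counts required, 1 gene was called in RM1 against M1, since Nrp1 dropped out. In M1 against M0, 2 genes were called with DESeq2 size factors, with library totals and with a prior count of 0.25, Nrp1 with Sema4d under library totals and with Plxna4 under the other alternatives. In RM1 against RM0, 2 were called with the GC trend removed, Nrp1 and Sema4c. In the M2 test, a fit to 4 libraries only called 5 genes, a count without the share of all genes in that fit. The cause of these differences was not tested. Plxnc1, Sema4d and Nrp1 passed the M1 test, lower, under each alternative run. Of 70 fold changes of the 10 genes, all 70 stayed within counting error with DESeq2 size factors, while 30 moved beyond it with library totals and 23 with the GC trend removed. Depth limits Plxna4 (17 to 133 counts) and Nrp1 (19 to 143 counts) most.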
